A study of Homo sapiens with 12 samples.

Results

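Keratins and epithelial junction proteins give a pancreatic duct cell its shape and its seals to its neighbours. The 10 genes described here were chosen by name: the keratins KRT7, KRT8, KRT18, KRT19 and KRT80, the tight junction genes CLDN4, OCLN and TJP1, and the desmosome genes DSP and JUP. All 10 were among the 20212 genes counted, and all 10 passed the count minimum that left 13329 genes to test. PANC-1 is an established human pancreatic ductal carcinoma line, described by the study as having lost the translation repressor EIF4EBP1 as protein, a loss that all groups here share. Cells received DMSO or 50 nM rapamycin, an inhibitor of the kinase complex mTORC1, for 60 min, in 3 cultures each. From every culture came a library of ribosome footprints (RF, the mRNA fragments that ribosomes protect from nuclease) and one of total RNA, 12 libraries in all. Translation efficiency (TE) is RF over total RNA of the same gene.

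Keratins are intermediate filament proteins that polymerise only as pairs of a type I and a type II chain. KRT8 and KRT18 are the founding pair of simple epithelia, KRT19 is the duct keratin and partners KRT8, KRT7 is the second type II keratin of ducts, and KRT80 is a type II keratin found near desmosomes and cell edges. Filaments are anchored at desmosomes through DSP (desmoplakin), which binds JUP (plakoglobin), itself bound to the desmosomal cadherins. At tight junctions CLDN4 (claudin 4) and OCLN (occludin) span the membrane and TJP1 (ZO-1) ties them to actin.

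RF counts came to between 278835 and 1574723 per library and total RNA counts to between 78081241 and 94293744. The limit that a count of 0 sets, 3 counts, came to 2.04 to 9.98 CPM (counts scaled to library size) for RF and to no more than 0.0388 CPM for RNA, and covers counting error only. The cell type on the labels, pancreatic duct, was checked against 8 marker genes: KRT19 stood at a mean of 1378 FPKM (the authors' RNA level scaled to transcript length and depth) and the duct factor SOX9 at 20.9, while CFTR and SPP1 were at most 0.138. Markers of acinar, endocrine and endothelial cells summed to at most 1.41 RNA CPM in any library and those of fibroblasts to at most 9.15. The leukocyte list summed to between 105.8 and 122.2 RNA CPM, of which CD68 alone was at least 104.8. In DMSO RNA libraries 1 and 2, 3372 and 3354 genes had no count, against 365 to 461 genes in the other RNA libraries, and this is taken up again with the scarce keratins.

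How well a keratin can be counted depends on its sequence, since the authors kept uniquely aligned reads only and footprints are short. Of the 30-base windows of the KRT8 coding sequence, 74.2% had an exact copy elsewhere in GRCh37, and of those of KRT18 74.0%. The share was 14.8% for KRT19, 6.68% for KRT7 and 4.37% for KRT80. Among the junction genes it was 31.0% for OCLN and 7.02% for CLDN4, and no window of TJP1, DSP or JUP had a copy. The KRT8 copies lay at 63 other loci, 52 of them with an annotated pseudogene, and 49 pseudogenes named after KRT8 were among these. For KRT18 there were 68 loci, 67 of them with a pseudogene, and 66 were named after KRT18. The copies of OCLN lay at a single pseudogene, OCLNP1, and those of CLDN4 in its neighbours in the claudin family, CLDN3 and CLDN6. With windows of 100 bases, nearer in length to the RNA fragments, the share fell to 8.89% for KRT8 and to 0% for KRT18, and was 13.8% for OCLN. A read that aligns to more than one place is not in the counts, and how many reads of these genes this took away was not tested. The windows are the same in both treatments.

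**Figure D1:**
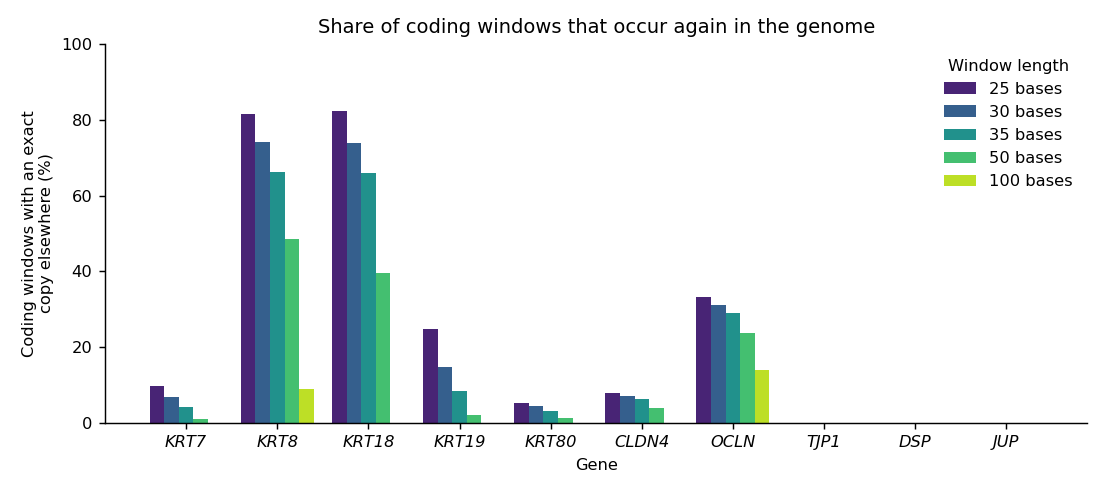
Share of coding windows, in percent, that occur again exactly anywhere else in GRCh37, for each of the 10 genes (x axis) and for windows of 25, 30, 35, 50 and 100 bases (colours). KRT8 and KRT18 stand above all others up to 50 bases, OCLN keeps 13.8% at 100 bases, and TJP1, DSP and JUP are at 0.

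Where the copies lie along a coding sequence differed between the keratins. The copies of KRT19 windows lay at 12 loci, among them the related type I genes KRT13, KRT14, KRT16 and KRT17. KRT80 has copied windows in separate blocks, shared with KRT7, KRT8 and other type II keratins. The most copied window of KRT80 lies within coding bases 1085 to 1144 of 1356. In KRT8 and KRT18 copied windows make up most of the coding sequence. KRT8 also has stretches without a copy, such as the windows starting at bases 96 to 154 and 544 to 573.

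**Figure D2:**
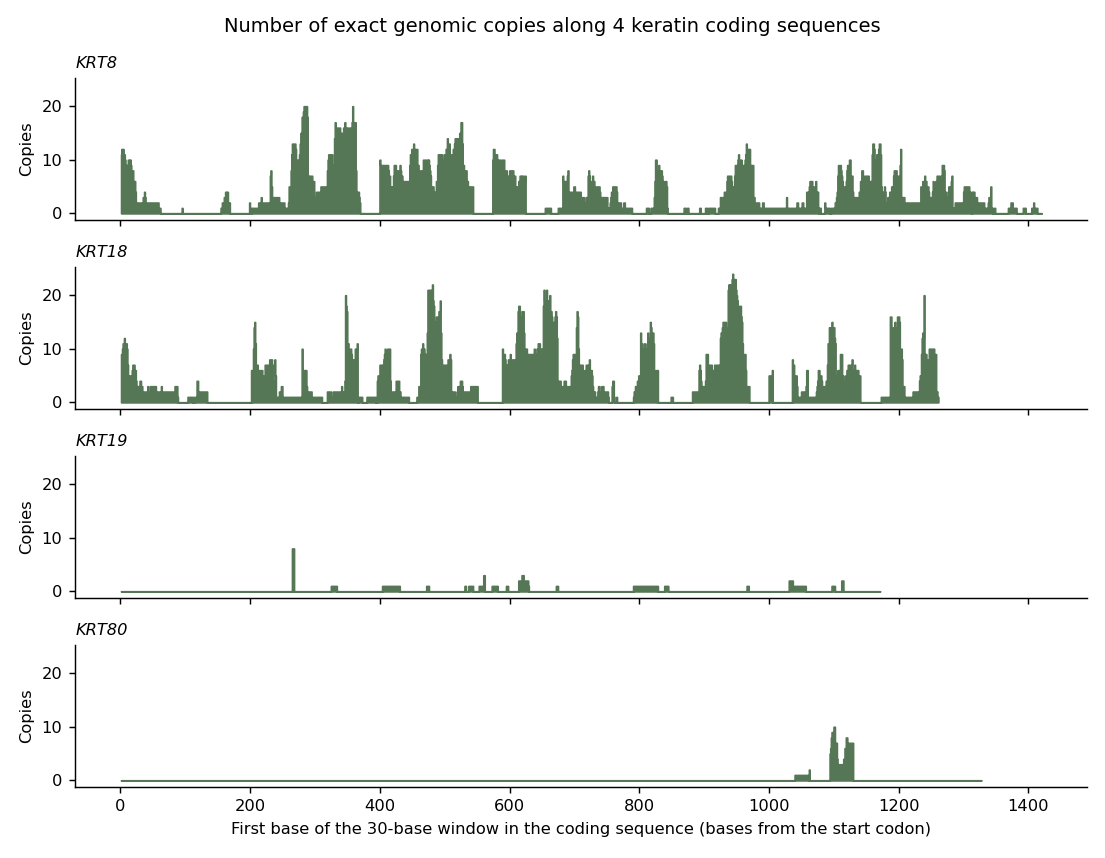
Number of exact genomic copies (y axis) of every 30-base window along the coding sequences of KRT8, KRT18, KRT19 and KRT80 (x axis, bases from the start codon). Copies reach 20 in KRT8 and 24 in KRT18 and cover most of the sequence, with stretches of none in KRT8. Those of KRT80 lie in separate blocks and reach 10.

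In total RNA the 3 simple-epithelial keratins were among the most abundant mRNAs of the cells. KRT8 ranked 13, KRT18 ranked 19 and KRT19 ranked 34 of 19545 genes with an FPKM value above 0. Mean FPKM in DMSO was 1739 ± 29.4 (SD, n = 3) for KRT8, 1594 ± 12.7 for KRT18 and 1372 ± 32.6 for KRT19. CLDN4 followed at 74.8 ± 1.24, JUP at 46.4 ± 0.895, TJP1 at 34.4 ± 2.69 and OCLN at 23.2 ± 0.957. KRT7 at 11.5 ± 0.485 and KRT80 at 10.96 ± 0.173 overlapped in FPKM, and DSP was lowest at 3.20 ± 0.156. Every other pair of neighbours in this order was separated in all 3 DMSO cultures.

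By RF per kilobase of coding length KRT8 was again first, and CLDN4 and JUP again followed the 3 abundant keratins. The other genes changed places. In DMSO it was 1674 ± 229 CPM per kb (SD, n = 3) for KRT8 and 1614 ± 180 for KRT19, which overlapped, and 1042 ± 136 for KRT18, which lay below both. These counts hold uniquely aligned reads only, while the length is that of the whole coding sequence. At 30 bases, 25.77% of KRT8 windows, 26.01% of KRT18 windows and 85.23% of KRT19 windows had no copy. The order of these 3 keratins is therefore one of countable RF, and their order in all footprints was not tested. CLDN4 had 205 ± 36.8 CPM per kb, JUP 56.4 ± 7.69, OCLN 28.8 ± 11.5 and KRT80 16.2 ± 3.41, of which OCLN and KRT80 overlapped. TJP1 at 6.98 ± 4.12, DSP at 4.996 ± 1.92 and KRT7 at 3.77 ± 2.83 lay below KRT80 in every DMSO culture and overlapped one another. KRT80 and KRT7, which overlapped in FPKM, were separated in RF per coding kb in every DMSO culture. KRT7 rested on 3, 1 and 8 footprints there, and its full-length coding isoform held 2.01% of its isoform FPKM. The coding isoforms KRT80-202 and KRT80-201 held 59.0% and 28.2% of that of KRT80, so equal gene FPKM is not equal coding mRNA.

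**Figure D3:**
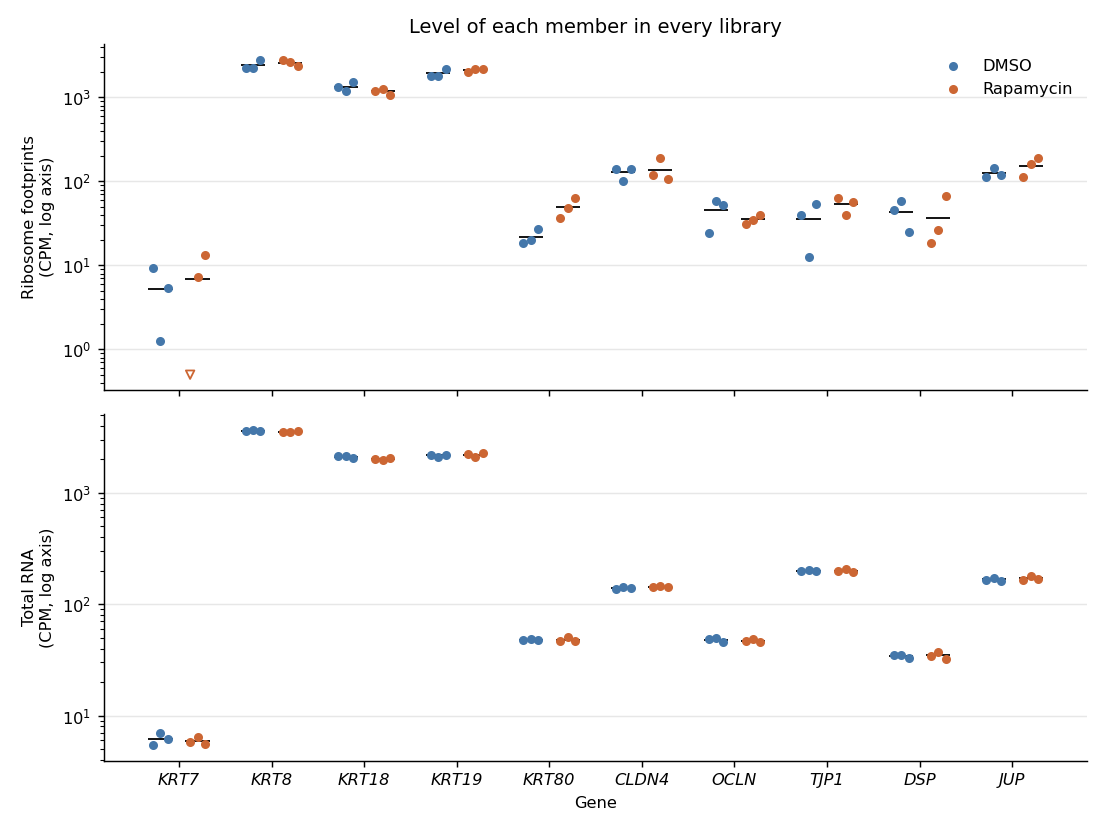
RF (upper panel) and total RNA (lower panel) of each gene in every library, in CPM on log axes, with DMSO in blue, rapamycin in orange, 1 point per culture and a bar at the mean of 3 cultures. The open triangle marks the rapamycin culture with 0 KRT7 footprints. KRT80 is the one gene whose RF points do not overlap between the treatments, and the RNA points of every gene lie close together.

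Rapamycin against DMSO asks whether inhibiting mTORC1 for 60 min moved the translation of these mRNAs. In edgeR's quasi-likelihood fits 0 of the 10 genes reached an adjusted p under 0.05 in TE, 0 in RF and 0 in total RNA, and over all 13329 genes tested the share called was 0% in each of the 3 fits. The median log2 change of the 10 genes was 0.10 in TE, 0.12 in RF and -0.0037 in total RNA, beside -0.06, 0.02 and 0.0059 over all genes tested. Without single cultures the median of the 10 ran from -0.075 to 0.19 in TE and from -0.029 to 0.0064 in total RNA, and in TE it was below 0 without DMSO replicate 2 (-0.016) and without rapamycin replicate 2 (-0.075). In TE, 6 genes were above 0 and 4 below. At an unadjusted p under 0.05, 1 of the 10 was higher in TE (KRT80), where 6.17% of all genes were, and 0 were lower, where 6.42% were. In RF 1 was higher, again KRT80, where 1.76% of all genes were. The groups were separated upward in TE for 1 gene, where 4.8% of all genes were, and downward for 0, where 6.19% were. In RF the groups were separated upward for 1 gene (background 5.24%) and downward for 0 (background 4.21%). In total RNA they were separated upward for 1 gene, CLDN4 (background 8.22%), and downward for 1, KRT18 (background 6.61%). The gene separated upward in TE and in RF was KRT80 in both.

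**Figure D4:**
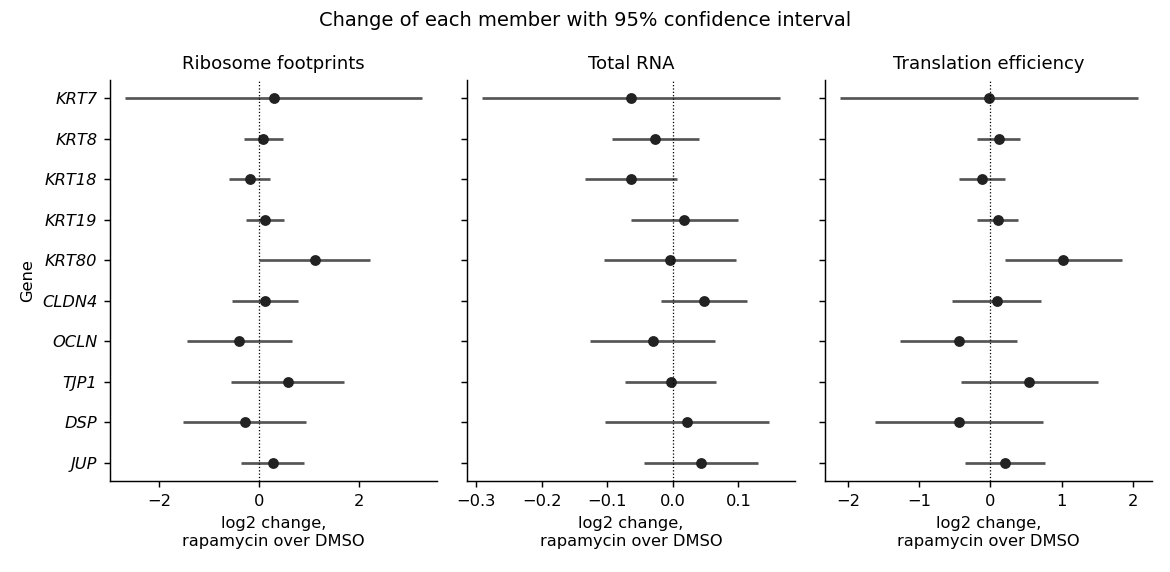
Log2 change, rapamycin over DMSO, of each gene in RF, total RNA and TE (panels; each x axis has its own scale), as points with 95% confidence intervals from edgeR's quasi-likelihood fits. The TE interval of KRT80 runs from 0.20 to 1.85, those of the other genes include 0, and the RNA intervals are the narrowest.

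KRT80, the type II keratin of cell edges, had the largest log2 change of the 10 genes in RF and in TE. Its RF level was 18.5, 20.1 and 27.2 CPM in the DMSO cultures and 36.5, 48.4 and 63.2 CPM in the rapamycin cultures, so every rapamycin culture was above every DMSO culture. Behind these values stood 6, 16 and 40 reads with DMSO against 44, 40 and 19 with rapamycin. Its total RNA was 10.96, 11.1 and 10.8 FPKM with DMSO and 10.4, 11.6 and 10.6 FPKM with rapamycin, which overlapped. The log2 change was 1.11 in RF (SE 0.52, edgeR unadjusted p = 0.0486), -0.0039 in total RNA (SE 0.045) and 1.02 in TE (SE 0.38, 95% interval 0.20 to 1.85, edgeR unadjusted p = 0.0181, adjusted p = 0.305). The TE fit pools the spread of RF and RNA libraries, and its SE for KRT80 was below that of RF alone. Log2 TE per culture went from -1.20, -1.12 and -0.68 in DMSO to -0.25, -0.0083 and 0.49 in rapamycin (two-sided exact permutation test, p = 0.1, the smallest that 3 cultures against 3 allow). Among all tested genes its mean log2 TE was at percentile 36.3 with DMSO and at percentile 63.7 with rapamycin. Leaving out each culture in turn gave a log2 change in TE between 0.80 and 1.21, and the 2 cultures per treatment with the larger RF libraries gave 0.80. DESeq2's Wald test gave 0.90 with an adjusted p of 0.00682 and called KRT80, the only one of the 10 genes it called in TE. Of the 13329 genes tested, it called 607 lower and 685 higher in TE. A single call among the 10 genes therefore lies near the share over all genes. KRT80 (ENSG00000167767) lies on chromosome 12 from 52562780 to 52585798, minus strand, inside the type II keratin cluster and over the antisense-strand lncRNA LINC00592. Its RNA was split between the coding isoforms KRT80-202 (59.0% of isoform FPKM) and KRT80-201 (28.2%), and RF counts are per gene and do not tell these apart.

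KRT8, the main type II partner, had an RF level of 2239, 2227 and 2808 CPM in DMSO and 2759, 2631 and 2349 CPM in rapamycin. The groups overlapped, and the highest and lowest values were both in DMSO. The log2 change in TE was 0.12 (95% interval -0.19 to 0.42, edgeR adjusted p = 0.780), and in total RNA it was -0.03 (interval -0.09 to 0.04). Its gene (ENSG00000170421, chromosome 12, 53290971 to 53343738, minus strand) runs over the start of KRT18 on the opposite strand, and whether the counting used strand is not given in the sources used here.

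KRT18, the type I partner (ENSG00000111057, chromosome 12, 53342655 to 53346690, plus strand), had RF levels of 1317, 1185 and 1532 CPM in DMSO and 1208, 1268 and 1065 CPM in rapamycin, which overlapped. Its total RNA was 1593, 1607 and 1581 FPKM in DMSO and 1554, 1478 and 1579 FPKM in rapamycin, so all 3 rapamycin cultures were below all 3 DMSO cultures. The difference was small: the log2 change in total RNA was -0.06 (SE 0.031, edgeR unadjusted p = 0.0671, adjusted p = 0.766), and in TE -0.12 (95% interval -0.45 to 0.20).

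KRT19, the duct keratin without a tail domain (ENSG00000171345, chromosome 17, 39679869 to 39684560, minus strand), had the smallest coefficient of variation of RF in both treatments. RF was 1815, 1811 and 2186 CPM in DMSO and 1984, 2184 and 2152 CPM in rapamycin. The treatments overlapped, with a log2 change of 0.10 in TE (95% interval -0.19 to 0.39, edgeR adjusted p = 0.799) and 0.02 in total RNA. For these 3 abundant keratins every 95% interval of the log2 change in TE lay between -0.45 and 0.42.

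The balance between the filament partners was compared within each library, where sequencing depth cancels. RF of KRT18 over KRT8, per coding kb, was 0.660, 0.598 and 0.613 in DMSO and 0.492, 0.541 and 0.509 in rapamycin, so the ratio was lower in every rapamycin culture. RF of KRT19 over KRT18 was 1.48, 1.64 and 1.53 in DMSO and 1.77, 1.85 and 2.17 in rapamycin, again without overlap. KRT19 over KRT8 overlapped, at 0.979, 0.982 and 0.940 against 0.868, 1.003 and 1.11. The first 2 ratios share KRT18 and are not independent, and they were singled out after their values were seen. Across all 3655 pairs of the 86 genes with at least 6000 RF counts, 4.76% of ratios were separated between the treatments in either direction. In total RNA, KRT18 over KRT8 was 0.917 ± 0.0123 (SD, n = 3) in DMSO and 0.906 ± 0.0169 in rapamycin on the FPKM scale, which overlapped. On the same scale KRT19 over KRT18 was 0.875, 0.831 and 0.877 in DMSO and 0.899, 0.897 and 0.904 in rapamycin. That ratio was therefore higher in every rapamycin culture in total RNA too. Type I over type II chains, as KRT18 and KRT19 summed over KRT7, KRT8 and KRT80, was 1.57 ± 0.0426 in DMSO and 1.47 ± 0.115 in rapamycin in RF per coding kb, and 1.68 ± 0.0286 and 1.70 ± 0.0350 in FPKM. The sums are carried by KRT8, KRT18 and KRT19, and the RF part of KRT8 and KRT18 was counted on the windows that are unique, 25.77% and 26.01% of them at 30 bases.

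KRT7, the second duct type II keratin (ENSG00000135480, chromosome 12, 52626304 to 52645970, plus strand), was scarce in footprints. Its RF libraries held 3, 1 and 8 reads with DMSO against 0, 6 and 4 with rapamycin. No change was detectable at this depth: the 95% interval of its log2 change in TE ran from -2.11 to 2.07. Its RNA was 11.1, 12.02 and 11.2 FPKM with DMSO and 9.87, 10.99 and 9.83 FPKM with rapamycin, lower in every rapamycin culture on this scale, while the groups overlapped in CPM. Little of this RNA was assigned to the full-length coding isoform KRT7-201, which had 0.139 to 0.270 FPKM and 2.01% of the gene's isoform FPKM. The isoforms KRT7-212 (37.5%) and KRT7-209 (35.4%), which carry no defined coding sequence in the annotation, held most of it, and KRT7-208, a retained intron, held 11.6%. The gene overlaps KRT86 on its own strand and the antisense lncRNA KRT7-AS.

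Among the tight junction genes, CLDN4 (ENSG00000189143, chromosome 7, 73213872 to 73247020, plus strand) had the most RF. It had 142, 102 and 142 CPM in DMSO and 119, 190 and 106 CPM in rapamycin, which overlapped, with a log2 change in TE of 0.09 (95% interval -0.53 to 0.71). Its total RNA was 74.2, 76.2 and 73.9 FPKM in DMSO and 77.1, 77.1 and 77.5 FPKM in rapamycin, higher in every rapamycin culture by a log2 change of 0.05 (SE 0.029, edgeR unadjusted p = 0.140, adjusted p = 0.766).

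OCLN (ENSG00000197822, chromosome 5, 68788119 to 68853931, plus strand) had 24.6, 57.8 and 53.0 RF CPM in DMSO and 31.5, 35.1 and 39.9 in rapamycin. The lowest culture was DMSO 1, and the rapamycin cultures lay between it and DMSO 2 and 3. Its log2 change in TE was -0.45 (95% interval -1.27 to 0.38, edgeR adjusted p = 0.672), and it stayed below 0 as each culture was left out. Its RNA was 22.7, 24.2 and 22.5 FPKM against 22.6, 23.3 and 21.5.

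TJP1 (ENSG00000104067, chromosome 15, 29991571 to 30261118, minus strand) stood apart by its TE level. Its RNA of 37.5, 33.1 and 32.6 FPKM in DMSO was above that of OCLN. In CPM, the scale of TE, its RNA in DMSO was 199.8 ± 1.54 against 48.1 ± 1.97 for OCLN (SD, n = 3). Mean RF in DMSO was 35.4 ± 20.9 CPM for TJP1 and 45.1 ± 17.9 CPM for OCLN. By culture, RF of TJP1 was 39.99, 12.6 and 53.7 CPM in DMSO and 63.0, 39.9 and 56.6 CPM in rapamycin. The mean log2 TE was -2.60 ± 1.01 (SD, n = 3) in DMSO and -1.87 ± 0.363 in rapamycin, at percentiles 4.78 and 12.8 of all tested genes, and every culture lay below every culture of the other 9 genes. No coding window of its main isoform, TJP1-204, had a copy elsewhere. Of that isoform 75.0% is coding, whereas 25.3% of that of OCLN and 35.01% of that of KRT80 is. TJP1-204 held only 28.06% of the isoform FPKM of TJP1. TJP1-209 held 25.97%, TJP1-203 17.3% and TJP1-202 15.3%. The main isoforms of OCLN and KRT80 held 76.1% and 59.0% of theirs. The part of the isoforms in the TE level of TJP1 was not tested. The log2 change of TJP1 in TE was 0.54 (95% interval -0.42 to 1.51, edgeR adjusted p = 0.655). Without DMSO replicate 2, the culture with 10 RF counts, it was 0.10, while without DMSO replicate 3 it was 1.27 (edgeR adjusted p = 0.142).

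**Figure D5:**
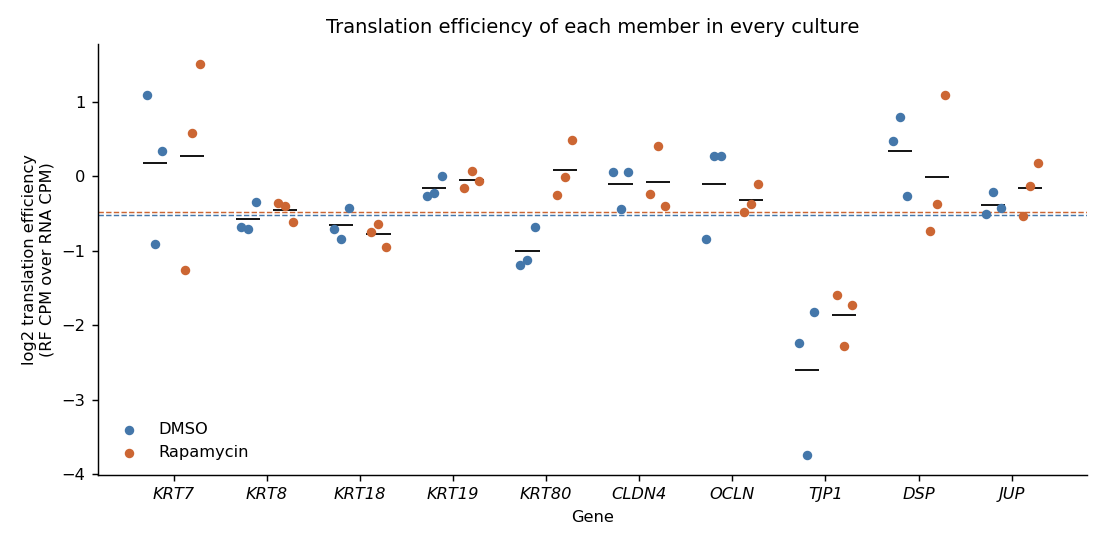
Log2 TE (RF CPM over RNA CPM, with a prior count of 2) of each gene in every culture, DMSO in blue and rapamycin in orange, with bars at the mean of 3 cultures and dashed lines at the median of all tested genes in each treatment. KRT80 has higher points in rapamycin without overlap, TJP1 lies lowest in both treatments, and the spread is widest for KRT7, DSP and TJP1.

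The desmosome genes had overlapping groups. DSP (ENSG00000096696, chromosome 6, 7541571 to 7586947, plus strand) had 46.1, 57.8 and 25.1 RF CPM in DMSO and 18.2, 26.6 and 66.5 in rapamycin, where the highest and the lowest value were both in rapamycin. Its log2 change in TE was -0.44 (95% interval -1.62 to 0.74). It was -0.045 without rapamycin replicate 1, -0.10 without DMSO replicate 2, -0.99 without rapamycin replicate 3 and -0.98 without DMSO replicate 3. The RNA of DSP was 3.30, 3.28 and 3.02 FPKM against 3.15, 3.46 and 2.92. DSP-201, the long isoform, held 72.6% of its isoform FPKM and the shorter DSP-202 27.0%. DSP was the one gene of the 10 whose main isoform starts, at its annotated 5′ end, with C and at least 4 pyrimidines, the TOP motif of mRNAs that respond to mTORC1; 4.199% of 12860 tested genes do so. JUP (ENSG00000173801, chromosome 17, 39910856 to 39943183, minus strand) had 114, 146 and 119 RF CPM with DMSO and 112, 162 and 190 with rapamycin, which overlapped. The log2 change in TE was 0.20 (95% interval -0.36 to 0.77, edgeR adjusted p = 0.790), between 0.052 (without rapamycin replicate 3) and 0.39 (without rapamycin replicate 1) as single cultures were left out, and 0.0026 in the 4 cultures with the larger RF libraries. The RNA of JUP was 46.2, 47.4 and 45.7 FPKM against 46.7, 50.3 and 46.4.

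The spread within a treatment was set beside that of counting. For KRT8, KRT18 and KRT19 the coefficient of variation of RF was between 5.11% and 13.7%, and counting alone gives at most 3.99%. For KRT80 in DMSO it was 21.1% with 29.1% from counting, and for DSP in rapamycin 69.5% with 21.7% from counting. In total RNA the coefficient of variation was at most 7.52% for every gene but KRT7. The 5 keratins together took between 0.474% and 0.640% of the RF counts of a library and between 0.755% and 0.795% of its RNA counts, and the 5 junction genes between 0.0330% and 0.0495% of RF. These shares hold uniquely aligned reads only, and the reads lost to copies were not estimated.

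Most other keratins had little RNA. Of 51 further keratin rows, 22 passed the count minimum, 0 were called in edgeR's fits of TE, RF or RNA, and 0 had an unadjusted p under 0.05 in TE. By FPKM KRT15, a basal type I keratin, was highest at a mean of 17.0, above KRT7, KRT80 and DSP, with a log2 change in TE of 1.01 (edgeR unadjusted p = 0.0545), and KRT10, the suprabasal type I keratin, followed at 4.07 FPKM with -0.61. By RNA counts KRT222 (ENSG00000264058), named after its values were seen, was highest, with 40091 RNA counts over the 6 libraries against 16544 for KRT15, although its mean FPKM was 0.245. It had between 66.5 and 83.7 RNA CPM and 146 RF counts in all, and log2 changes of -0.17 in RNA (edgeR unadjusted p = 0.0106, adjusted p = 0.766) and 0.22 in TE. Another row of the same name, ENSG00000213424, had 87 RNA counts and 0 RF counts. Whether the counts of the higher row come from the keratin transcript was not tested. The median log2 change of the 22 was 0.98 in total RNA and -1.07 in TE. The 48 rows under 1 FPKM and under 1000 RNA counts summed to 4.61 and 4.85 RNA CPM in DMSO libraries 1 and 2 and to between 9.76 and 12.8 CPM in DMSO library 3 and the rapamycin libraries. In DMSO RNA libraries 1 and 2, 26 and 23 of the 51 had no count, and in the other RNA libraries 0 had none. The part of those 2 libraries in the median changes was not tested. For the 10 genes themselves, the coefficient of variation of RNA CPM over the DMSO libraries was 12.1% for KRT7 and at most 4.09% for the others. The same 48 rows summed to between 86.1 and 182 RF CPM.

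The partners of the 10 genes were read from lists of the same pathways. Of 11 keratin partners and plakins, 1 had an unadjusted p under 0.05 in TE, EVPL (envoplakin), a plakin of the desmosomal plaque, with 4, 11 and 16 RF reads for DMSO, 31, 17 and 9 for rapamycin and a log2 change of 0.98 (edgeR unadjusted p = 0.0298, adjusted p = 0.346). VIM, the mesenchymal filament protein, had 2501 FPKM, more than any keratin, and a log2 change in TE of -0.05. LMNA, a nuclear lamin, had 326 FPKM and a change of 0.14. Of 12 other desmosome genes 6 were tested and 0 passed at an unadjusted p under 0.05 in TE; the log2 difference was -0.10 for PERP (143 FPKM) and 0.32 for PKP4 (33.5 FPKM).

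Of 39 other tight junction genes 24 were tested, of which 3 were higher and 2 lower in TE at an unadjusted p under 0.05. TJAP1, a tight junction protein, had 1, 0 and 9 RF reads for DMSO against 23, 13 and 3 for rapamycin (log2 change 2.22, edgeR unadjusted p = 0.00219, adjusted p = 0.231). CLDN7 had a log2 change of 1.21 (edgeR unadjusted p = 0.0430), and is named although it lay beyond the 4 smallest p-values. CXADR had 1, 29 and 44 RF reads against 5, 13 and 2 (log2 change -1.64, edgeR unadjusted p = 0.0265), and CLDN20 had 1, 9 and 1 against 0, 0 and 0, for which no fold is given. PARD6B (42.0 FPKM) and F11R (31.0 FPKM), the most abundant of the list, had log2 differences of -0.14 and -1.26 with unadjusted edgeR p-values of 0.715 and 0.189.

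Of 13 adherens junction genes 0 had an unadjusted p under 0.05 in TE; the log2 difference was -0.25 for VCL (189 FPKM) and -0.24 for CTNNA1 (144 FPKM). Of 8 gap junction genes 3 were tested and 0 passed; it was 0.03 for GJC1 (28.4 FPKM) and -0.55 for GJB2 (4.96 FPKM). Among 7 tested epithelial regulators, 2 grainyhead factors were higher in TE at an unadjusted p under 0.05. GRHL3 had 0, 2 and 4 RF reads for DMSO against 8, 9 and 7 for rapamycin (log2 change 2.196, edgeR unadjusted p = 0.00648, adjusted p = 0.238), and GRHL1 had 2, 0 and 2 against 6, 10 and 2 (log2 change 2.35, edgeR unadjusted p = 0.0156, adjusted p = 0.290). ELF3 (19.7 FPKM) and ESRP2 (8.503 FPKM) had log2 differences of 0.10 and -0.61. Among 7 tested repressors and mesenchymal genes, SNAI1, a repressor of epithelial genes, was higher with 2, 12 and 2 RF reads for DMSO against 23, 14 and 7 for rapamycin (log2 change 1.73, edgeR unadjusted p = 0.0149, adjusted p = 0.287). CDH2 (25.3 FPKM) had a log2 difference of -0.18. With 0 adjusted calls in each list, these are values at low counts, beside a background of 6.17% of genes higher and 6.42% lower at the same unadjusted p.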

How the data were processed

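PANC-1 cultures in DMSO (n = 3) and rapamycin (n = 3) were assigned to groups from the labels. The authors deposited raw counts of uniquely aligned reads per protein-coding gene for 12 libraries: RF reads were quality filtered, linker trimmed, kept from 15 nt and cleared of ribosomal RNA, and reads were aligned to GRCh37 with HISAT2 and counted with featureCounts. The authors deposited FPKM values per gene and isoform of total RNA, made by Cuffnorm (Cufflinks 2.2.1 per the submitters' processing notes). The columns of the authors' own TE comparison (ratios, fold changes and p-values) and Cuffnorm's normalized counts were not used.

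Tests on the counts used edgeR 4.0.16 under R 4.3.3. Genes with at least 10 RF and 10 RNA counts summed were tested with TMM factors computed within each library type and robust quasi-likelihood tests: the interaction of library type and treatment for TE, and the treatment alone for RF and RNA. P-values were adjusted by Benjamini-Hochberg over all genes tested. No replicate pair agreed within sampling noise, so each library counted once. RF and RNA libraries of a treatment with the same number in their titles were taken as 1 culture. Their deviations from the group mean had correlations between -0.096 and 0.0081. Same-numbered DMSO and rapamycin libraries did not deviate together either (correlations between -0.216 and -0.061), so no pairing was used. Nothing says whether the cultures were grown on separate days. P-values of the RF and RNA fits measure the spread between these cultures. The TE fit takes 1 spread per gene over RF and RNA libraries together. Its common biological coefficient of variation was 24.4%, against 54.9% in the RF fit and 5.31% in the RNA fit. TE intervals and p-values can therefore be too narrow for the spread of RF between cultures. Fewer cells of a type and less RNA per cell cannot be told apart in such libraries.

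Copies of coding windows were sought on both strands of GRCh37, windows across exon junctions included, in the coding isoform with the highest FPKM. Gene positions are from GENCODE 44 lifted to GRCh37, which differs in version from the authors' annotation. The fits and the window search were tested on simulated counts and by plain string search. The members and gene lists were chosen with earlier results of these data known. All 10 members are named; of each list, the genes with an unadjusted p under 0.05 in TE (at most 4) and the 2 of highest FPKM. Alternatives used DESeq2 1.42.0 and limma 3.58.1, and those with longer windows and with the larger RF libraries were chosen after seeing the data. Some sequences and genes are not reported here.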

Additional observations from a re-analysis of the deposited data

How the results depend on the processing

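With edgeR's quasi-likelihood test 0 genes were called at an adjusted p under 0.05 in TE, RF or total RNA; at an unadjusted p under 0.05 the counts were 856 lower and 823 higher in TE, 256 and 234 in RF, and 334 and 442 in RNA. Of the 13329 genes tested, DESeq2's Wald test called 607 lower and 685 higher in TE with 1 of the 10 members, 1 and 4 in RF, and 4 and 25 in RNA. A minimum count of 1 called 10 lower and 10 higher in RF. Limma-trend on FPKM called 1 gene higher in RNA with each pseudocount and with no minimum. Leaving out each culture gave 0 to 331 lower and 0 to 65 higher in TE, 0 to 1 and 0 to 5 in RF, and 0 to 4 and 0 to 683 in RNA; the 331 and 65 in TE came without DMSO replicate 3. The cause was not tested in any of these. The median RF change of the members was 0.013 to 0.20 without single cultures and 0.054 with the 4 cultures of larger RF libraries. The share of member windows without a copy, 88.5% at 30 bases, was 86.8% at 25, 90.0% at 35, 93.4% at 50 and 98.6% at 100, which follows from the longer windows. With a replicate block, which the correlations above do not call for, 1 gene was higher in TE and 2 lower and 4 higher in RF, and KRT7 turned to 0.75 in TE; with a culture block it was 0.053.

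Changes near 0 turned direction: at a minimum count of 60, TJP1 RNA was 0.0089 and KRT80 RNA 0.0087; with the 4 cultures of larger RF libraries, they were 0.015 and 0.013, and KRT7 RF was -0.0068. DSP RNA was -0.0097, -0.013 and -0.0097 in the FPKM fits with a pseudocount of 1, of 0.1 and with no minimum. Without single cultures, KRT7 ranged from -0.64 to 1.005 in TE, -0.51 to 0.99 in RF and -0.15 to 0.029 in RNA, CLDN4 from -0.21 to 0.22 in TE and -0.18 to 0.26 in RF, and DSP from -0.93 to 0.073 in RF and -0.034 to 0.073 in RNA. In TE, KRT8 kept to 0.039 to 0.22, KRT18 to -0.22 to -0.027, KRT19 to 0.043 to 0.17 and TJP1 to 0.10 to 1.27. In RNA, KRT19 ranged from -0.0040 to 0.051, KRT80 from -0.049 to 0.023 and TJP1 from -0.024 to 0.012. Of 417 changes of single members under the alternatives, 386 kept their direction and their side of the threshold and 30 turned. At this RF depth, genes with few counts have intervals wider than a 2-fold change.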
